A study of Mus musculus with 6 samples.

Results

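The Dlx homeobox genes and their partners in ventral forebrain interneurons were followed in mouse brain 30 days after cranial irradiation. The set holds 9 genes, taken by name from the 23057 gene symbols of the deposited expression table. They are the transcription factor genes Dlx1, Dlx2, Dlx5, Dlx6, Sp8, Sp9, Lhx6 and Nkx2-1 and the long noncoding RNA gene Dlx6os1, also called Evf2. All 9 were in the table, and 8 passed the filter for testing, an average of 0.5 FPKM or more (FPKM scales fragment counts by transcript length and by the fragments mapped in the library). Nkx2-1 did not.

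The groups were 3 mock-irradiated mice and 3 mice given a total dose of 10 Gy of X-rays to the head, all of strain C57BL/6 with no allele or transgene named. Total RNA came from PBS-perfused brains that the labels call whole, 1 library per mouse, with neither age nor sex given in the sources used here. Libraries are named mock 1 to mock 3 and IR 1 to IR 3 after the labels, which do not pair equal numbers, and values are listed in the order of those numbers.

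Forebrain GABAergic interneurons are born in the ganglionic eminences of the ventral telencephalon, where DLX homeodomain proteins promote GABAergic identity and the migration of newborn interneurons. Cells of the medial eminence depend on NKX2-1, which turns on the LIM-homeodomain gene Lhx6. Lhx6 stays on in the cortical and hippocampal interneurons that make somatostatin or parvalbumin. In the adult, DLX proteins and the zinc-finger proteins SP8 and SP9 mark neuroblasts of the subventricular zone, which migrate to the olfactory bulb, and interneurons of the bulb itself.

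On the mm10 genome the Dlx genes lie in convergently transcribed pairs (RefSeq annotation of GRCm38.p6, the assembly mm10 represents). Dlx1 (chromosome 2, 71528113 to 71533981, plus strand) and Dlx2 (71543408 to 71546754, minus strand) are 9.43 kb apart. Dlx6 (chromosome 6, 6863334 to 6867970, plus strand) and Dlx5 (6877801 to 6882068, minus strand) are 9.83 kb apart. Dlx6os1 (6820543 to 6871627, minus strand) spans the whole of Dlx6 on the opposite strand, although their GENCODE M21 exons share 0 bases. Sp9 (chromosome 2, 73271926 to 73275771), Lhx6 (chromosome 2, 36081950 to 36105992), Nkx2-1 (chromosome 12, 56531935 to 56536908) and Sp8 (chromosome 12, 118846288 to 118852578) stand alone.

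Sequences just upstream of a transcription start are given for 4 members. The sequences were chosen because Dlx2, Sp9 and Dlx6os1, from separate loci, were high and low in the same libraries, while Lhx6 was not. Dlx1 and Sp8, whose windows are not shown, were high and low in those libraries too. Each is the 250 bases before a RefSeq transcription start (GRCm38.p6), written 5′ to 3′ on the gene's strand. The windows are chr2:71546755-71547004 for Dlx2, chr2:73271676-73271925 for Sp9, chr6:6861684-6861933 for 1 start of Dlx6os1 and chr2:36105409-36105658 for 1 start of Lhx6. The Dlx6os1 and Lhx6 windows lie inside the gene spans given above, and the Sp9 window overlaps a GENCODE M21 exon of Sp9. Capitals mark matches to TAATTA, a core read by many homeodomain proteins, to CAAGTG, a core read by NKX2 proteins, or to GGGCGG, the GC box read by SP proteins, each on either strand.
Dlx2: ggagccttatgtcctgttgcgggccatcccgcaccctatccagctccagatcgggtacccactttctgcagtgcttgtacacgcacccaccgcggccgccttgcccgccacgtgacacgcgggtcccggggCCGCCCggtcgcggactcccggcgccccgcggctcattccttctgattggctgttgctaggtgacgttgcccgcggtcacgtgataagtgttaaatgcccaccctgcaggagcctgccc
Sp9: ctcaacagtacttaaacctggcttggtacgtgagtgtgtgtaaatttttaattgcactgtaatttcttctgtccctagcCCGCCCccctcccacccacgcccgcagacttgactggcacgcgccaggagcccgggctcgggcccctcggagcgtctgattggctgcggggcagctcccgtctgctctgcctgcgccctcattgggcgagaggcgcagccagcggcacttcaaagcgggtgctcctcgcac
Dlx6os1: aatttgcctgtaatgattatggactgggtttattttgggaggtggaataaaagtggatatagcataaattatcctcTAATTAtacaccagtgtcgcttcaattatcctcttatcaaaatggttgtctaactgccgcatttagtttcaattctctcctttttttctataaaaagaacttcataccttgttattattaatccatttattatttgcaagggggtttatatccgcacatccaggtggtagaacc
Lhx6: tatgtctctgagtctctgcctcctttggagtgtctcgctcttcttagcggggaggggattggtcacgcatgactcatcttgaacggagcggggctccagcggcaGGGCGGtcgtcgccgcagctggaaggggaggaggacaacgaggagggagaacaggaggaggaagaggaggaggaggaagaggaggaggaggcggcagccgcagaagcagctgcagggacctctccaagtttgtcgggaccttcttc
The Dlx6os1 window held TAATTA, at position -174 from the start, and the other 3 windows each held a GC box, written CCGCCC in Dlx2 and Sp9. Over all 12 windows of the 7 members in the table, TAATTA was in 3, CAAGTG in 1 and GGGCGG in 6. Among 32851 windows of the same length over all genes, 4.84% held TAATTA, 11.6% held CAAGTG and 32.7% held GGGCGG, with no overlapping matches in the windows shown. Each window shown held a match, whereas the windows of Dlx1 and of another Lhx6 start, not shown, held none. A match describes the letters only.

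Regional markers differed between libraries that the labels call alike. Neuron, astrocyte, oligodendrocyte, microglia and endothelium markers were present in each library, with 0 of 5 genes at 0 in each list. Of these markers Aqp4 (astrocytes) and Mobp (oligodendrocytes) fell and the others were not called, and neither call held without mock 1 or IR 3. The 10 telencephalon genes summed to 286, 133 and 225 FPKM in mock 1, 2 and 3 and to 471 to 888 FPKM in irradiated libraries, with none at 0. The 6 genes of olfactory bulb projection neurons summed to 139, 19.7 and 159 FPKM in mock and to 158, 10.1 and 8.53 FPKM in irradiated libraries, with none at 0. The 12 cerebellum genes summed to 1301 to 1958 FPKM in mock and 135 to 281 FPKM in irradiated libraries, and Gabra6 was listed at 0 in IR 2.

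The Dlx genes were nearly absent from mock 2, high in mock 1, mock 3 and IR 1, and lower in IR 2 and IR 3, so the groups overlapped. Dlx1, the most abundant of them in most libraries, was at 13.2, 0.0163 and 11.5 FPKM across the mock libraries, against 11.7, 2.22 and 3.68 FPKM across IR 1 to IR 3. Its partner Dlx2 was at 5.80, 0 and 4.94 FPKM across the mock libraries, against 5.47, 1.46 and 1.76 FPKM across IR 1 to IR 3, where 0 is the value listed and may be a failed estimate. IR 1 thus lay with mock 1 and mock 3 for both genes. In bulk RNA, fewer cells of a type and less RNA per cell cannot be told apart.

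The Dlx5 and Dlx6 pair, which acts after Dlx1 and Dlx2 as interneurons differentiate, was high and low in the same libraries. Dlx5 was at 5.87, 0 and 4.76 FPKM across the mock libraries, against 7.93, 1.30 and 2.19 FPKM across IR 1 to IR 3. Dlx6 was at 6.74, 0 and 8.97 FPKM across the mock libraries, against 7.47, 2.14 and 5.24 FPKM across IR 1 to IR 3, so IR 3 came closest to the high libraries for this gene. Dlx6os1, whose RNA is known to act with DLX proteins at the Dlx5 and Dlx6 enhancers, was at 3.83, 0.0173 and 2.73 FPKM across the mock libraries, against 3.30, 1.35 and 1.95 FPKM across IR 1 to IR 3. Dlx6 and Dlx6os1 share no exonic base in GENCODE M21. Dlx6os1 spans the whole of Dlx6, however, so unspliced reads in that span can be told apart only by strand. The libraries were stranded, but the sources used here give neither the annotation nor the strand setting of the counting.

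None of the 5 Dlx members passed the test. Over all 14585 tested genes, 3.48% were called higher and 4.24% lower, 7.72% in all (limma, adjusted p under 0.05). Among the 8 tested members 1 was higher (Lhx6) and 0 were lower, with 1 at an unadjusted p under 0.05. The log2 change of Dlx1 was 0.23 (SE 1.16, 95% interval -2.40 to 2.87, limma adjusted p = 0.92), and those of Dlx2, Dlx5, Dlx6 and Dlx6os1 were 0.21, 0.43, 0.61 and 0.42 (adjusted p = 0.73 to 0.90). The median over the 8 tested members was 0.33, against -0.02 over all tested genes. Mock 2 lay far below mock 1 and mock 3 for all 5.

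Without mock 2 the sign of all 5 Dlx changes turned. Dlx1 then had a log2 change of -1.31 (95% interval -2.63 to 0.0025, limma adjusted p = 0.27) and Dlx2 one of -0.97 (adjusted p = 0.31). Dlx5, Dlx6 and Dlx6os1 had -0.75, -0.74 and -0.53 (adjusted p = 0.54, 0.42 and 0.43). In this fit 1.32% of all tested genes were called higher and 2.00% lower, and of the members only Lhx6 was called. Leaving out mock 1 or mock 3 instead gave Dlx1 changes of 1.06 and 0.96, while leaving out IR 1 gave -0.38. Without IR 1 Dlx2 and Dlx5 also turned (-0.29 and -0.22), whereas Dlx6 and Dlx6os1 did not (0.26 and 0.14). With mock 2 and IR 1 both left out, a pair picked on these values so that lower Dlx levels follow from the choice, Dlx1, Dlx2, Dlx5, Sp8 and Sp9 were called lower and Lhx6 higher, while 4.38% of all tested genes were called lower and 4.04% higher.

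**Figure D1:**
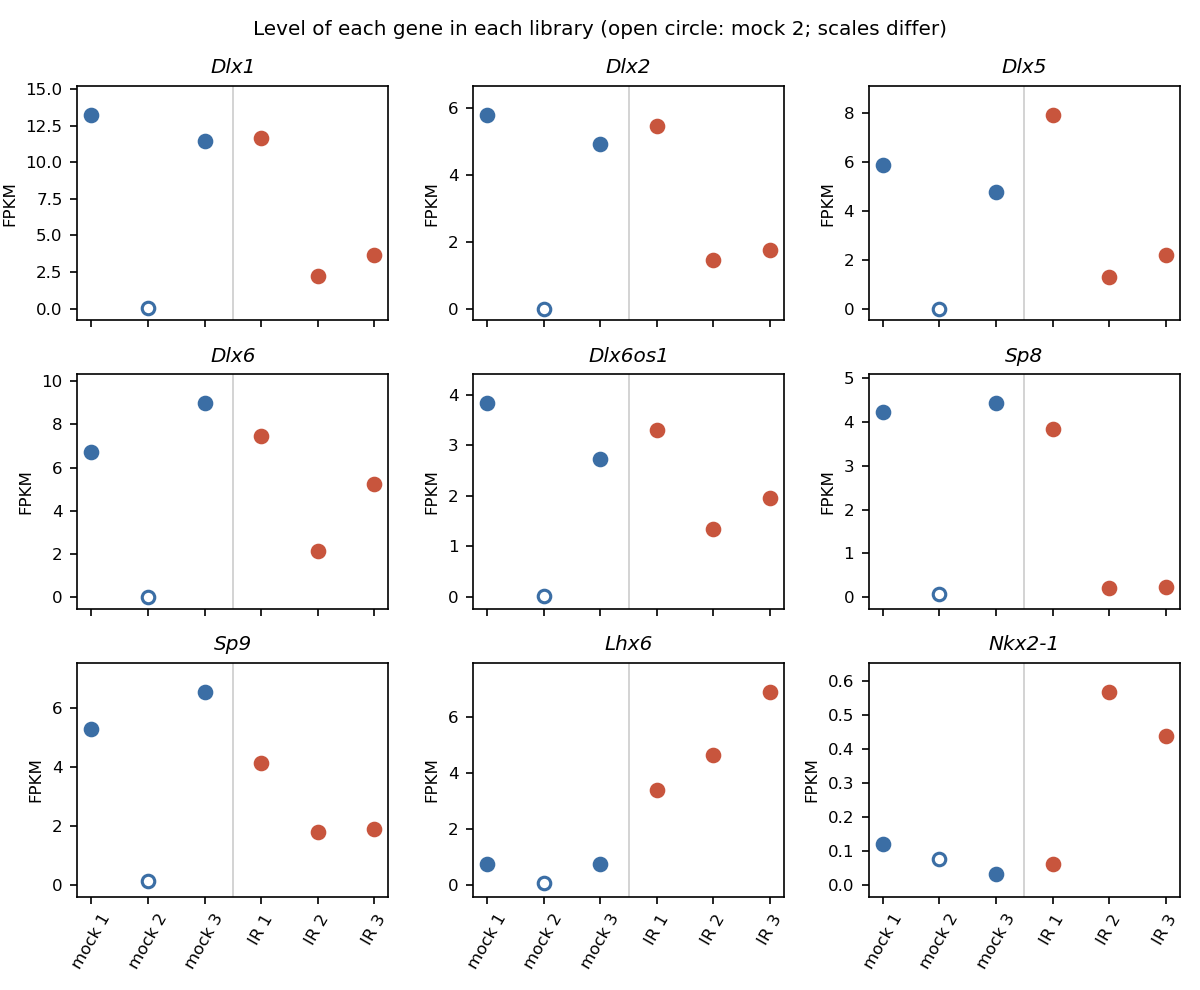
FPKM of the 9 genes in each library, 1 panel per gene with its own axis, mock in blue and irradiated in red, mock 2 as an open circle. Dlx and Sp genes are near 0 in mock 2 and high in mock 1, mock 3 and IR 1, while Lhx6 is higher in the 3 irradiated libraries (3.39 to 6.89 FPKM) than in the 3 mock libraries (0.0680 to 0.771 FPKM).

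The near absence of these RNAs from mock 2 was rare among genes. Of 14273 genes with at least 0.5 FPKM in both mock 1 and mock 3, only 40 (0.280%) were at 5% or less of the mean of those libraries in mock 2. Of the 8 members with such levels, 7 were among the 40. Dlx2, Dlx5 and Dlx6 were listed at 0, Dlx1 was at 0.132% and Dlx6os1 at 0.527% of that mean, Sp8 at 1.64% and Sp9 at 2.48%. Lhx6, at 8.89%, was outside that limit but within 10%, as 0.483% of the genes were. The 40 also held 4 of the 10 telencephalon genes, Emx1 and Tbr1 among them, and the bulb genes Tbx21 and Cdhr1, but 0 of 12 cerebellum genes. Mock 2 thus nearly lacked RNAs that whole brain should hold. Mock 2 nevertheless had RNA of the enzymes that make GABA, with Gad1 at 127 FPKM against 194 and 169 FPKM in mock 1 and mock 3, and Gad2 at 38.3 FPKM against 37.4 and 36.2 FPKM. Gad1 and Gad2 serve GABAergic neurons of every brain region.

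Sp8 and Sp9 separated most clearly in IR 2 and IR 3. Sp8, which marks bulb interneurons of the periglomerular layer and some interneurons of the caudal eminence, was at 4.22, 0.0707 and 4.43 FPKM across the mock libraries, against 3.84, 0.208 and 0.225 FPKM across IR 1 to IR 3. It was thus either near 4 FPKM or near 0, and both groups held both levels. Sp9, which also serves striatal projection neurons, was at 5.29, 0.147 and 6.56 FPKM across the mock libraries, against 4.15, 1.81 and 1.92 FPKM across IR 1 to IR 3. Sp9 therefore kept an intermediate level in IR 2 and IR 3 where Sp8 did not.

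With all 6 libraries the log2 change of Sp8 was -0.86 (SE 0.93, 95% interval -2.99 to 1.27, limma adjusted p = 0.59), and that of Sp9 was -0.01 (SE 0.80, adjusted p = 0.997). Without mock 2 they were -1.88 (95% interval -3.62 to -0.14, adjusted p = 0.23) and -1.11 (95% interval -1.88 to -0.34, adjusted p = 0.13). Neither passed. In that comparison both genes were lower in all 3 irradiated libraries than in mock 1 and mock 3, which was also so for 21.8% of all tested genes.

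**Figure D2:**
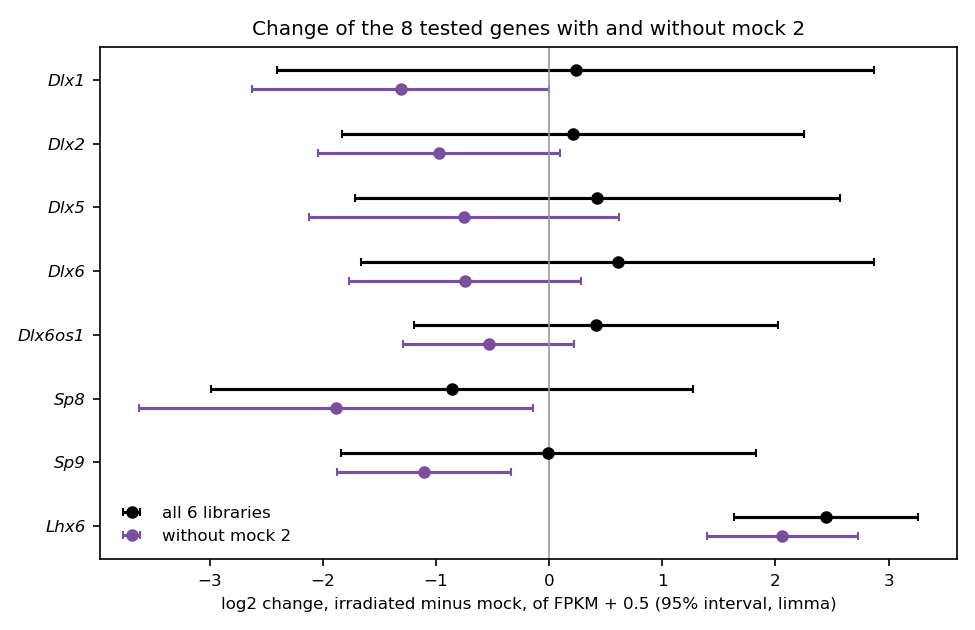
Log2 change of FPKM + 0.5, irradiated minus mock, for the 8 tested genes with 95% intervals from limma, with all 6 libraries in black and without mock 2 in purple. The 5 Dlx estimates move from above to below 0, and Lhx6 stays near 2 (2.45 and 2.06).

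Lhx6 was the 1 member that rose. Its RNA was at 0.758, 0.0680 and 0.771 FPKM across the mock libraries, against 3.39, 4.62 and 6.89 FPKM across IR 1 to IR 3, so the groups did not overlap, as for 13.7% of all tested genes in this direction. It was the only member of the 8 whose groups did not overlap, against 17.7% of tested genes in the lower direction and 31.5% in either. The mean went from 0.532 ± 0.402 to 4.96 ± 1.78 FPKM (SD, n = 3 each; log2 change 2.45, SE 0.36, 95% interval 1.63 to 3.26, limma adjusted p = 0.0058). The call held in each of 16 alternative settings, with log2 changes from 1.96 to 3.28 and a largest adjusted p of 0.025, and without mock 2 the change was 2.06 (adjusted p = 0.013). IR 1, which resembled mock 1 and mock 3 in Dlx and Sp8 levels, resembled IR 2 and IR 3 in Lhx6. The telencephalon list moved in the same direction: 9 of its 10 genes had groups that did not overlap. More telencephalic tissue in the irradiated libraries and a change of Lhx6 within that tissue therefore cannot be told apart.

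Nkx2-1, needed for medial eminence identity and later active in the hypothalamus and a few striatal and cortical interneurons, was close to the floor of the table. It was at 0.122, 0.0769 and 0.0338 FPKM across the mock libraries, against 0.0618, 0.569 and 0.440 FPKM across IR 1 to IR 3. IR 2 and IR 3 were thus the higher libraries, and IR 1 lay within the mock range. Without a filter on low values its log2 change was 0.52 (95% interval -0.01 to 1.05, limma adjusted p = 0.24), in a fit that called 1.81% of 19679 genes higher and 2.59% lower. Of the 16 hypothalamus genes 8 were tested, of which 1 rose (Cartpt, a neuropeptide precursor, log2 change 2.52) and 1 fell (Crh, corticotropin-releasing hormone, -1.28, not called without IR 3, adjusted p = 0.057). The list summed to 43.8 to 57.4 FPKM in mock and to 84.0 to 182 FPKM in irradiated libraries, with 2 to 5 genes at 0 in each library. Cartpt alone was at 9.86, 20.2 and 17.4 FPKM across the mock libraries, against 127, 109 and 51.3 FPKM across IR 1 to IR 3, and the centred medians of the list overlapped between groups (-0.19, 0.19 and -0.07, against 0.54, -0.14 and 0.0070). The part of the list in the Nkx2-1 values was not tested.

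The order of the members within a library changed as well. FPKM is scaled by length, so levels of different genes can be set side by side. Dlx1 was the highest of the 9 in mock 1, mock 3 and IR 1, whereas Lhx6 was the highest in IR 2 and IR 3 and the lowest but 1 in mock 1 and mock 3. In mock 2 the highest member was Sp9, at 0.147 FPKM, and no order can be read from values so low.

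Ratios within a library do not depend on the total used to scale it. The ratio of Dlx2 to Dlx1 was 0.438 in mock 1, 0.430 in mock 3 and 0.469, 0.658 and 0.479 in IR 1 to IR 3. The ratio of Dlx5 to Dlx6 varied more, at 0.872 in mock 1, 0.531 in mock 3 and 1.06, 0.607 and 0.417 in IR 1 to IR 3. The ratio of Dlx6os1 to Dlx6 ran from 0.305 to 0.631 over the same libraries. The ratio of Sp8 to Sp9 was 0.799 in mock 1, 0.675 in mock 3 and 0.925 in IR 1 but 0.115 in IR 2 and 0.117 in IR 3. Set against Gad2, which encodes a GABA-making enzyme of all GABAergic neurons, Dlx1 had a ratio of 0.354 in mock 1, 0.317 in mock 3 and 0.349 in IR 1 but 0.0463 in IR 2 and 0.121 in IR 3. The ratio of Lhx6 to Gad2 was 0.0203 and 0.0213 in mock 1 and mock 3 and 0.101, 0.0965 and 0.226 in IR 1 to IR 3. The Lhx6 ratio was therefore higher in each irradiated library than in those mock libraries. In mock 2 the ratios to Gad2 were 0.000427 for Dlx1 and 0.00178 for Lhx6, with Dlx1 and Lhx6 themselves near 0. No test was made of the ratios, which were chosen after the values were seen.

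Dlx1as, an antisense RNA of Dlx1 (chromosome 2, 71530638 to 71537891) singled out because it overlaps that member, was at 10.4, 0.0140 and 8.63 FPKM across the mock libraries, against 12.2, 5.59 and 7.24 FPKM across IR 1 to IR 3. Its ratio to Dlx1 was 0.783 and 0.751 in mock 1 and mock 3, 1.05 in IR 1 and 2.52 and 1.97 in IR 2 and IR 3. The antisense RNA was thus less reduced than Dlx1 in IR 2 and IR 3. Exons of the pair share 335 bases in GENCODE M21, which is 6.21% of the exonic bases of Dlx1, and reads there can be told apart only by strand.

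**Figure D3:**
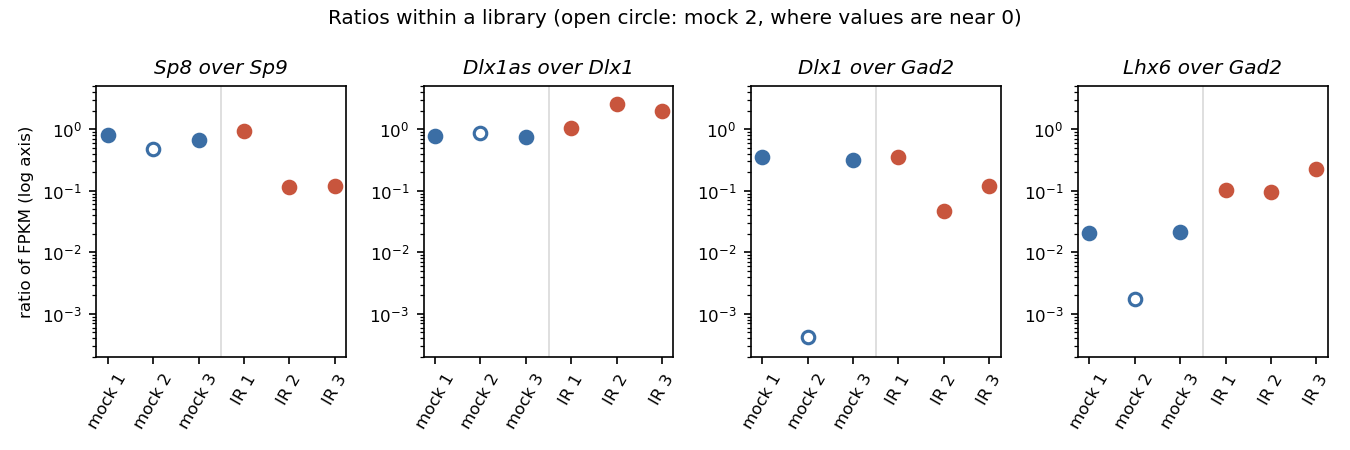
Ratio of FPKM values within each library on a log axis, for 4 pairs of genes, mock in blue and irradiated in red, mock 2 as an open circle resting on member values near 0. Sp8 over Sp9 is near 0.1 in IR 2 and IR 3 only, Dlx1as over Dlx1 is highest there, Dlx1 over Gad2 is lower there than in mock 1, mock 3 and IR 1, and Lhx6 over Gad2 is higher in the irradiated libraries than in the mock libraries.

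Region markers ran beside these patterns. The median of the olfactory bulb projection neuron list, on a log2 scale centred on each gene's mean, was 1.43, -0.68 and 1.42 across the mock libraries, against 1.46, -1.42 and -1.64 across IR 1 to IR 3. The centred mean of the 5 Dlx members was 1.12, -2.67 and 0.98, against 1.14, -0.58 and 0.0045. The same libraries, mock 1, mock 3 and IR 1, were high for both. Mock 2 was the lowest for the Dlx members, whereas IR 2 and IR 3 were the lowest for the median of the bulb list. That median includes Lhx5 and Barhl2, which in mock 2 were at 102% and 78.1% of the mean of mock 1 and mock 3. Tbx21 and Doc2g of that list were singled out after their values were seen. Tbx21, a transcription factor of bulb output neurons, was at 3.50, 0.0192 and 3.37 FPKM across the mock libraries, against 6.25, 0.0493 and 0.0608 FPKM across IR 1 to IR 3. It was thus near 0 in mock 2, IR 2 and IR 3, and no order among those libraries can be read from values so low. Doc2g, another gene of these cells, was lowest in IR 2 and IR 3, and was at 94.4, 6.22 and 118 FPKM across the mock libraries, against 123, 3.96 and 4.26 FPKM across IR 1 to IR 3. Of the bulb list 2 genes fell, Barhl2 (log2 change -2.0) and Lhx5 (-1.11, not called without mock 1, mock 2 or mock 3, largest adjusted p = 0.058), and 0 rose. Both were low in IR 1 too (1.33 and 2.78 FPKM), where Tbx21 and Doc2g were high. Like the cerebellum list, Barhl2 and Lhx5 were higher in every mock library than in every irradiated library. Which region their RNA came from was not tested. How much of the Dlx and Sp8 values goes with the amount of olfactory bulb in each library was not tested.

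The telencephalon list had centred medians of -0.22, -1.72 and -0.47, against 0.51, 0.80 and 1.35, in the same order as Lhx6 except that mock 1 and mock 3 changed places. Of its 10 genes 4 rose and 0 fell, with a median log2 change of 1.69: Neurod6 (1.72) and Emx2 (1.66), transcription factors of cortical neurons and of the dorsal telencephalon, Slc17a7 (1.58), a vesicular glutamate transporter, and Lhx2 (2.26). Emx2 was not called without IR 3 (adjusted p = 0.066), Slc17a7 without mock 2, mock 3, IR 2 or IR 3 (largest 0.13) and Lhx2 without mock 3, IR 2 or IR 3 (largest 0.15). Without mock 2 the list had 5 called higher. Of the 12 cerebellum genes 11 fell, led by p by Neurod1 (-3.12), Cbln1 (-3.38), Fat2 (-4.0) and Cbln3 (-6.49).

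**Figure D4:**
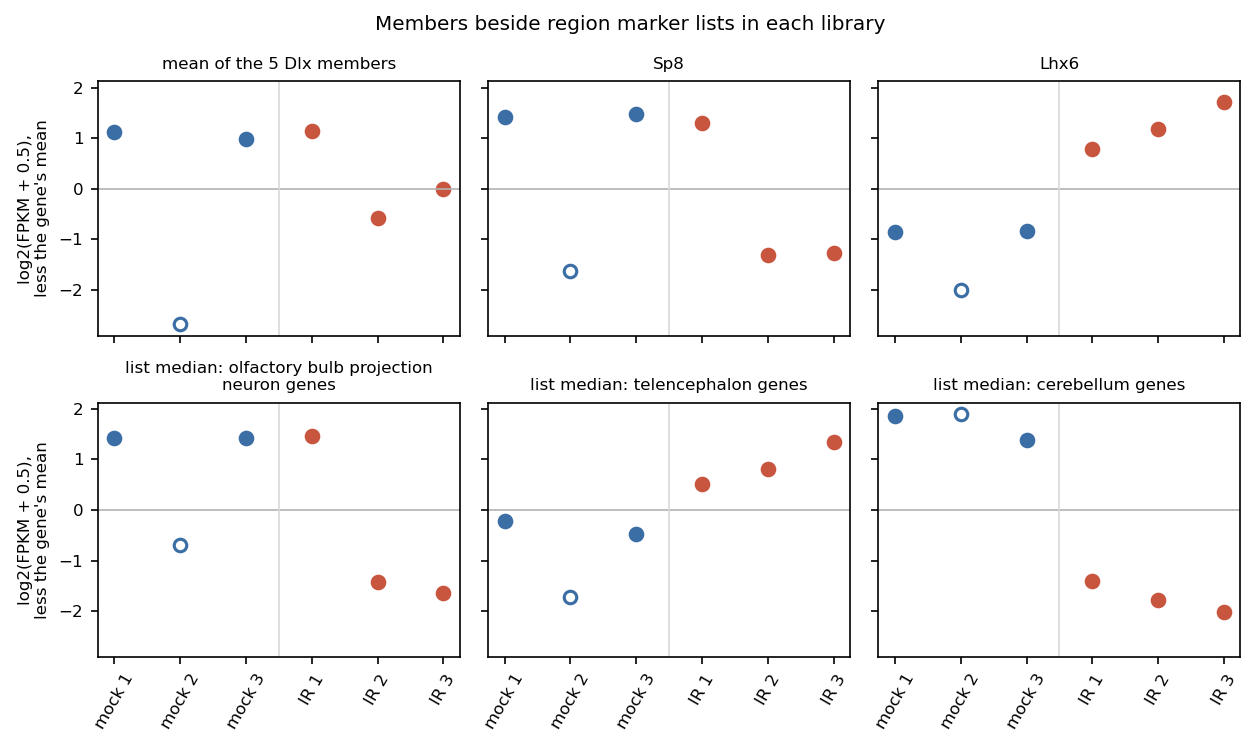
Centred log2 level in each library of the mean of the 5 Dlx members, Sp8 and Lhx6 (top) and the median of 3 region marker lists (bottom), mock in blue and irradiated in red, mock 2 as an open circle. Dlx and Sp8 are high in the libraries where the olfactory bulb list is high (about 1.4), and Lhx6 and the telencephalon list are higher in the irradiated libraries.

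Genes that act with or after the members in interneurons did not move as one. Of 5 genes for GABA synthesis and transport 0 were called, with 0 at an unadjusted p under 0.05 and a median log2 change of -0.03. Gad1 was at 194, 127 and 169 FPKM across the mock libraries, against 165, 141 and 102.5 FPKM across IR 1 to IR 3 (log2 change -0.27, SE 0.24, limma adjusted p = 0.51). Slc32a1, the transporter that loads GABA into vesicles, had a log2 change of -0.20 (adjusted p = 0.61). Neither had the near absence from mock 2 that the Dlx genes showed.

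Genes of medial eminence interneurons, the lineage of Lhx6, moved in both directions. Of 13 listed, 12 were tested, 1 rose and 3 fell, with a median log2 change of 0.05. Sst, which encodes the peptide somatostatin, was at 212, 179 and 363 FPKM across the mock libraries, against 610, 645 and 1446 FPKM across IR 1 to IR 3 (log2 change 1.79, SE 0.39, limma adjusted p = 0.030). Pvalb, which encodes the calcium-binding protein parvalbumin and is also strong in Purkinje cells, was at 281, 496 and 282 FPKM across the mock libraries, against 176, 79.6 and 51.3 FPKM across IR 1 to IR 3 (log2 change -1.92, SE 0.43, adjusted p = 0.033). The 2 classic products of Lhx6 lineage cells thus went in opposite directions in bulk RNA. Pvalb is also 1 of the 11 cerebellum genes that fell, so its values are not particular to that lineage. Which cells its RNA came from was not tested. Chodl, a marker of a rare somatostatin cell type, fell (-1.38), as did Kcnc1, a fast potassium channel subunit (-0.75). The Sst call was lost without mock 1, mock 2 or IR 3 (largest adjusted p = 0.11), the Pvalb call without mock 1, mock 2, mock 3, IR 2 or IR 3 (largest 0.11) and the Kcnc1 call without any 1 library other than IR 2 (largest 0.16). Lhx8, a medial eminence gene of cholinergic neurons, was at 0.0630 FPKM or less in each library and was not tested.

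Genes of caudal eminence interneurons had 3 of 12 higher and 1 lower, with a median log2 change of -0.07. Npas1, a transcription factor of interneurons and of the pallidum, was at 5.77, 4.85 and 6.44 FPKM across the mock libraries, against 13.4, 12.3 and 13.1 FPKM across IR 1 to IR 3 (log2 change 1.13, SE 0.16, limma adjusted p = 0.0053). Unlike the Dlx genes, Npas1 was not far lower in mock 2. Vip, a neuropeptide gene (1.37), and Nr2f2, a nuclear receptor of caudal eminence cells (0.87), rose too, and Lamp5, a gene of neurogliaform cells, fell (-0.94). Vip was called only with all libraries or without mock 3 among the fits that left out 1 library (largest adjusted p = 0.15), Nr2f2 only without IR 1 (largest 0.11) and Lamp5 in none of those fits (largest 0.13).

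Of 11 olfactory bulb interneuron genes 5 fell and 0 rose, with a median log2 change of -0.91. The 4 with the smallest p were Zic1 (-3.21), Zic2 (-2.43), Pax6 (-2.09) and Calb1 (-1.46), all of which the cerebellum expresses too. Zic1 was at 95.7, 75.5 and 53.2 FPKM across the mock libraries, against 8.36, 8.43 and 5.74 FPKM across IR 1 to IR 3, so it was high in mock 2, where Dlx RNA was near 0. Of 15 neuroblast and progenitor genes 11 were tested, 1 fell (Cd24a, a surface glycoprotein, -1.36) and 0 rose, with a median of -0.20. Dcx, the microtubule-associated protein of migrating neuroblasts that was singled out after its values were seen, was at 5.38, 0.867 and 3.40 FPKM across the mock libraries, against 1.5, 1.48 and 1.28 FPKM across IR 1 to IR 3 (log2 change -0.72, adjusted p = 0.36).

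Striatal projection neurons, which come from the lateral eminence and pass through a Dlx-positive stage, had 3 of 14 tested genes higher and 1 lower, with a median log2 change of 0.55. Drd1, a dopamine receptor (1.27), Gpr6 (1.65) and Bcl11b, a transcription factor (1.55), rose, and Ebf1, a transcription factor of direct-pathway neurons, fell (-1.72). Drd1 was not called without mock 2 or IR 3 (largest adjusted p = 0.069), Gpr6 without mock 1, mock 2, IR 2 or IR 3 (largest 0.11) and Bcl11b without any 1 library other than IR 1 (largest 0.17). Of the 8 thalamic reticular and prethalamic genes 7 were tested, and the 2 called were Sst and Pvalb, given above.

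**Figure D5:**
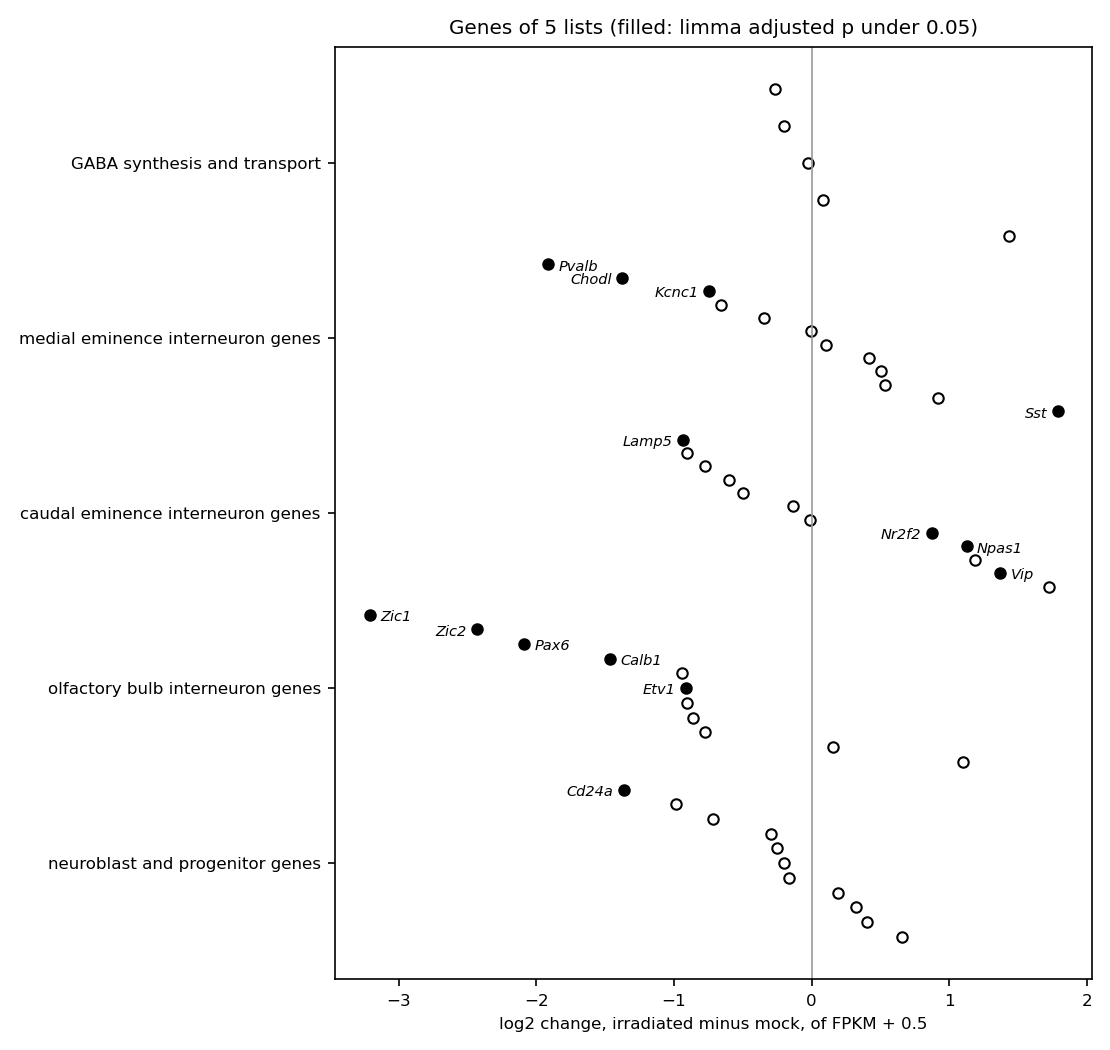
Log2 change of FPKM + 0.5, irradiated minus mock, of each tested gene in 5 lists tied to interneurons, with genes at a limma adjusted p under 0.05 filled and named. The GABA list has 0 called genes, the eminence lists have calls on both sides of 0, and the 5 calls of the olfactory bulb interneuron list lie below 0.

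Among paralogs of the members, Dlx3 and Dlx4, which serve skin, teeth and placenta rather than brain, were at 0.235 FPKM or less and 0.417 FPKM or less in each library. Of 22 paralogs 13 were tested, 1 rose (Lhx2) and 4 fell, with a median log2 change of -0.67. The 4 were Lhx1 (-2.05), a LIM-homeodomain gene of Purkinje cells, Nkx2-2 (-1.03), a gene of the oligodendrocyte lineage and ventral hindbrain, Lhx5 (-1.11) and Nkx2-9 (-1.31). Nkx2-2 was not called without mock 1 (adjusted p = 0.056) and Nkx2-9 was called only without IR 1 among the fits that left out 1 library (largest 0.12). Lhx1 was at 7.53, 7.19 and 4.89 FPKM across the mock libraries, against 1.12, 2.07 and 0.627 FPKM across IR 1 to IR 3, the opposite direction to Lhx6. Sp7, a bone-forming cell factor that was singled out after its values were seen, was high and low in the same libraries as Sp8, at 4.69, 0.634 and 3.62 FPKM across the mock libraries, against 4.57, 0.530 and 0.667 FPKM across IR 1 to IR 3 (log2 change -0.67, limma adjusted p = 0.58).

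The tested genes most like the mean of the 5 Dlx members over the 6 libraries, by Pearson's r on the log2 scale, were Synpr (0.993), Ptpro (0.992), Ipo13 (0.987), Akr1c18 (0.984), Midn (0.984), Ccnk (0.982), Efs (0.982) and Ins2 (0.977). Synpr, the synaptic vesicle protein synaptoporin, was at 62.6, 23.4 and 55.6 FPKM across the mock libraries, against 65.2, 37.3 and 46.2 FPKM across IR 1 to IR 3, a shallower version of the Dlx pattern. Akr1c18, a steroid-converting enzyme, came closer in depth, at 2.08, 0.0368 and 2.07 FPKM across the mock libraries, against 2.05, 0.796 and 0.754 FPKM across IR 1 to IR 3. The genes most like Lhx6 were Gpc4 (0.999), Mas1 (0.998) and Fam65b (0.998). Mas1, a receptor of the angiotensin system, was at 1.19, 0.201 and 1.07 FPKM across the mock libraries, against 6.24, 7.26 and 11.4 FPKM across IR 1 to IR 3. These r values describe 6 libraries and were picked as the highest of 14585 genes, so they carry no test.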

How the data were processed

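RNA was sequenced from 3 mock-irradiated and 3 irradiated mouse brains. The authors deposited 1 table of FPKM per gene and library. Per the submitters' processing notes, the tools were TopHat, Cufflinks and Cuffdiff and the build mm10. The sources used here give no versions, roles or annotation. A leftover header line was removed. Since FPKM hold no counts, count tests were not applied. Low values showed no common step between libraries (the commonest ratio to mock 1 covered at most 2.20% of low genes). Read counts could therefore not be recovered from the FPKM. The labels state 30 to 40 M reads per library (M for mega), and the fragments mapped in each library were not recovered. An exact 0 is called listed at 0.

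The 14585 genes averaging 0.5 FPKM or more were tested with limma (version 3.58.1, R 4.3.3) after adding 0.5 FPKM and taking log2. The model held the treatment group alone, with a trended prior variance. P-values were two-sided and adjusted by Benjamini-Hochberg across those genes. This scale understates the change of low genes. The fit was tested on simulated data. The labels give 1 mouse per library and nothing on litters or processing days.

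The 9 members and the marker lists were chosen with earlier results of these data known. Named genes were all members, of each list up to 4 called genes with the smallest p (or 2 where none was called), and the genes with the highest r to the Dlx mean (8) and to Lhx6 (3). Others are marked as singled out, and some genes under this rule are not reported here. Alternatives changed the pseudocount (0.1 or 1), the filter (none, or an average of 1 FPKM), the scaling (median centring or quantiles) and the fit (robust prior, library weights, replicate block), or left out libraries. Sequences and coordinates are from RefSeq (GRCm38.p6) and exons from GENCODE M21.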

Additional observations from a re-analysis of the deposited data

How the results depend on the processing

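Lhx6 was called higher, and was the only member so called, under all 16 alternatives. Members called lower numbered 0 except when mock 2 and IR 1 were left out together, which gave 5 (Dlx1 -1.93, Dlx2 -1.48, Dlx5 -1.40, Sp8 and Sp9). Those libraries were picked with these values known, so this supports nothing. In that fit Dlx6 was at -1.09 and Dlx6os1 at -0.81 on the log2 scale. The sign also turned without mock 2 (Dlx1 -1.31, Dlx2 -0.97, Dlx5 -0.75, Dlx6 -0.74, Dlx6os1 -0.53), with library weights (Dlx1 -0.82, Dlx2 -0.62, Dlx5 -0.47, Dlx6 -0.16, Dlx6os1 -0.19) and without IR 1 (Dlx1 -0.38, Dlx2 -0.29, Dlx5 -0.22). Sp9, at -0.01, became 0.30 with a pseudocount of 0.1, 0.033 with median centring, 0.072 with quantile normalization, 0.47 without mock 1, 0.62 without mock 3, 0.17 without IR 2 and 0.14 without IR 3. With 1 library left out, log2 changes ran from -1.31 to 1.06 for Dlx1, -0.97 to 0.85 for Dlx2, -0.75 to 1.08 for Dlx5, -0.74 to 1.38 for Dlx6, -0.53 to 0.998 for Dlx6os1 and -1.11 to 0.62 for Sp9.

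Over all genes 508 were called higher and 618 lower. Library weights gave 863 and 976, and leaving out 1 library gave 148 to 671 and 254 to 684. The counts were 184 and 254 without mock 1, 192 and 291 without mock 2, 306 and 344 without mock 3, and 148 and 259 without IR 3. Fits with fewer libraries have fewer samples, and the cause of the other shifts was not tested. The labels do not pair equal replicate numbers. Deviations from the group means had r of -0.33, 0.19 and 0.20 between groups for numbers 1, 2 and 3, which cannot settle whether samples were paired. With the replicate number as a block 394 genes were called lower, and the Lhx6 change was 2.45 (limma, adjusted p = 0.017). The block lowered the SE of Dlx1 from 1.16 to 0.69, with its log2 change still 0.23 (limma, adjusted p = 0.86). The labels state 30 to 40 M reads per library, but the reads behind single FPKM values could not be recovered. No lower limit was therefore set for levels near 0 in mock 2.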
